A study of Mus musculus with 1699 samples.

Results

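The cells described here were single cells of the embryonic day 13.5 (E13.5) mouse ventral midbrain with high *Th*, compared between Pitx3eGFP/eGFP homozygotes and Pitx3eGFP/wt heterozygotes. They were selected on their own reads and *Th* level, as cells with a summed read count over 100000 and a *Th* RPKM (reads per kilobase of gene model, scaled to the mapped reads of the cell) over 150. The rule chose 90 heterozygous and 81 homozygous cells of the 1699 cells of the series. The Pitx3tm1Mli allele (Pitx3eGFP) is a knock-in that places eGFP in the *Pitx3* gene and is at the same time its null allele, so the heterozygotes kept 1 working copy and there was no wild-type group. Ventral midbrain cells of both genotypes were sorted on eGFP fluorescence and made into Smart-seq2 libraries, in which each cell is amplified and sequenced by itself over the length of its transcripts. The homozygous cells came from 3 plates, 13H_4, 13H_5 and 13H_6 (below plates 4, 5 and 6), which held 43, 7 and 31 of the 81 cells. The heterozygous cells carried no plate label, no label named the embryo a cell came from, and the methods state only that several animals were used at each stage. Each genotype was therefore 1 sample, no test was made and no p-value is given. ERCC spike-in RNA was added to every homozygous library at this stage and to none of the heterozygous libraries. Within E13.5 genotype therefore cannot be told apart from spike-in, or from anything else that differed between these sets of libraries.

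Midbrain dopamine neurons make dopamine from tyrosine through tyrosine hydroxylase (*Th*) and aromatic amino acid decarboxylase (*Ddc*), load it into vesicles with *Slc18a2* (VMAT2) and take it up again with the transporter *Slc6a3* (DAT). Their precursors arise in the floor plate under *Lmx1a*, *Foxa2*, *Otx2* and Wnt signals, and the newborn neurons switch on *Nr4a2*, *En1* and *Pitx3*. *Pitx3* encodes a bicoid-class homeodomain protein of these neurons, and mice without it lose mainly the substantia nigra neurons that project to the dorsal striatum. The authors also found PITX3 protein in cells of the medial ventral tegmental area that lacked TH. At E13.5 most dopamine neurons have left the cell cycle and begun to mature.

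Of the cells with over 100000 reads, 90 of 140 heterozygous cells (64.3%, exact 95% interval 55.8 to 72.2) and 43.5% of homozygous cells (36.3 to 50.997) passed the *Th* limit. The passing shares on plates 4, 5 and 6 were 47.3%, 29.2% and 43.7%. These shares are a result of the rule and describe the selection. The lowest *Th* values inside the limit were 164.5 and 165.3 in heterozygotes and 157.7 and 163.97 in homozygotes, and the highest outside it 131.1 and 109.9, and 148.4 and 141.3. Within the selected cells the mean *Th* RPKM was 2058 ± 1541 in heterozygotes and 1307 ± 1049.6 in homozygotes (SD over cells). Cells with *Th* over 2000 were 39 of 90 heterozygous cells (43.3%, 32.9 to 54.2) and 16 of 81 homozygous cells (19.8%, 11.7 to 30.1). *Slc6a3*, *Chrna6*, *Elovl3*, *Slc18a2*, *Wnt5a* and *Otx2* are therefore also given below in bands of *Th*, and the other comparisons are not.

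Depth differed with genotype and plate. The median reads per cell were 2353453 in heterozygotes and 577778, 274252 and 1620239 on plates 4, 5 and 6. With each cell thinned to 100000 reads, the median number of genes with a read was 4710 in heterozygotes and 5022 in homozygotes. All 7 dopamine neuron markers and all 6 general neuron markers were expressed in both genotypes, and every cell held at least 3 general neuron markers and, with *Th* left out because it chose the cells, at least 3 of the other 6 dopamine neuron markers over an RPKM of 10. The summed RPKM of those 6 ran from 480.3 to 4776 in heterozygotes and from 708 to 3848 in homozygotes. No list of other midbrain cells had a tested member except the radial glia list, where *Vim* was at 205.7 against 197.1 and *Fabp7* at 16.6 against 14.9 (heterozygotes against homozygotes). No cell held 3 oligodendrocyte, microglial, endothelial, erythroid or motor neuron markers over an RPKM of 10. The serotonin list has 3 genes, of which *Tph2* had no read, so no cell could reach 3. *Olig1*, *Olig2*, *Sox10*, *C1qa* and *Cldn5* also had no read in either genotype, but other members of these lists did. The highest summed RPKM per cell, heterozygotes and homozygotes, was 243.9 and 71.3 for oligodendrocyte and 119.85 and 97.9 for endothelial markers. It was 10.96 and 0.223 for microglial, 340.9 and 22.3 for erythroid, 0.213 and 346.6 for motor neuron and 0.0978 and 64.2 for serotonin markers. Of the remaining marker lists, 3 midbrain GABA neuron markers met in 1 heterozygous cell and 3 radial glia markers in 5 homozygous cells.

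*Pitx3*, the targeted gene (chr19:46135685-46148326, minus strand, GRCm38), was measured first because it checks the labels. The lowest, median and highest RPKM were 0.535, 405 and 1896 in the heterozygous cells and 0, 15.6 and 70.6 in the homozygous cells. The means were 429 ± 343.3 in heterozygotes and 18.04 ± 15.01 in homozygotes, or 16.3, 13.6 and 21.4 on plates 4, 5 and 6, a 23.8-fold lower level in homozygotes. No homozygous cell reached an RPKM of 150 (0 of 81 cells, which allows a share of up to 3.70% by the limit of 3 counts and 4.45% by the exact interval), a level passed by 70 of 90 heterozygous cells (77.8%, 67.8 to 85.9). Residual reads were nevertheless common: 47 of 81 homozygous cells lay over an RPKM of 10, and 6 of the 81 had no read on the gene. In E13.5 cells with *Th* of 150 or below the means were 391.6 and 19.2, and in *Th*-high cells of postnatal day 1 (P1) with spike-in 138.9 and 8.84. The files give 1 value per gene, so reads outside the replaced part could not be separated from reads within it.

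eGFP, which is read from 2 alleles in homozygotes and 1 in heterozygotes, went the other way. Its mean RPKM was 336.3 ± 223.4 in heterozygotes and 639 ± 525 in homozygotes, a 1.90-fold higher level, and 661, 497 and 640.1 on plates 4, 5 and 6. The ranges overlapped, from 0 to 923 in heterozygotes and from 1.17 to 2206 in homozygotes. eGFP lay over an RPKM of 10 in 87 of 90 heterozygous cells (96.7%, 90.6 to 99.3) and 76 of 81 homozygous cells (93.8%, 86.2 to 97.97). All cells had been sorted on eGFP.

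**Figure D1:**
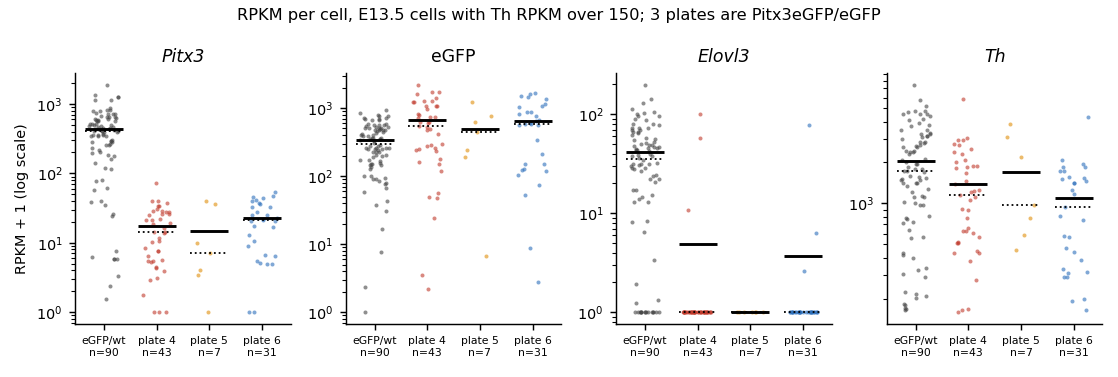
RPKM + 1 per cell on a log axis for Pitx3, eGFP, Elovl3 and Th in Pitx3eGFP/wt cells and on the 3 Pitx3eGFP/eGFP plates at E13.5; each point is a cell, the solid line the mean and the dotted line the median. Pitx3 and Elovl3 sit far lower on every homozygote plate (means of 429 against 18.04 and 40.3 against 3.09), eGFP sits higher (336.3 against 639), and the Th ranges overlap.

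*Elovl3*, a fatty acid elongase gene on the opposite strand, ends 10 bases inside the 3′ end of *Pitx3* (chr19:46131897-46135694, plus strand) and was lower in homozygotes together with it. Its RPKM was 40.3 ± 37.3 in heterozygotes and 3.09 ± 15.2 in homozygotes, with plate means of 3.86, 0 and 2.71. Reads over an RPKM of 10 were found in 68 of 90 heterozygous cells (75.6%, 65.4 to 84.003) and 3 of 81 homozygous cells (3.70%, 0.77 to 10.4). The homozygous minus the heterozygous share was -71.9 percentage points (-79.9 to -60.02). This interval and those like it below take cells as independent and hold no spread between embryos. The libraries do not mark the strand, so reads of the 2 genes where they meet cannot be told apart. A read of *Pitx3* RNA beyond its annotated end would also be counted on *Elovl3*. How many of the *Elovl3* reads, here and below, came from *Pitx3* was not tested, so *Elovl3* is not a measure separate from *Pitx3*. Among the 24 tested entries within 1000000 bases of *Pitx3*, *Pitx3* and *Elovl3* were the 2 that were lower by at least 2-fold and none was higher. *Gbf1*, the neighbour 4183 bases beyond the other end, was at 150.7 against 182.1, and the median log2 ratio of the tested entries there other than *Pitx3* was -0.05.

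Over all genes, 8275 entries had a mean RPKM of at least 10 in either genotype. An entry was counted as different where the log2 ratio of mean RPKM + 1, homozygote over heterozygote, was at least 1 in size pooled and on both plates with at least 10 of the cells (plates 4 and 6). By this rule 89 entries (1.08%) were higher and 1.79% of entries lower in homozygotes. The counts move with the measure: higher entries made 37.6% of those past the rule, 68.02% with the mean of log2(RPKM + 1) over cells and 10.5% with each cell scaled by its median ratio to the mean cell, where the median log2 ratio of all tested entries was -0.37 against -0.05 with RPKM. Without the condition on plates, 517 entries (6.25%) differed at least 2-fold between genotypes in either direction. For comparison, 1074 of 8379 entries (12.8%) differed at least 2-fold between plate 6 and plate 4, both homozygous. The plate means are over 31 and 43 cells with median reads of 1620239 and 577778, and the genotype means over 90 and 81 cells. Means over fewer cells differ more by sampling, so the 12.8% and the 6.25% are not like for like. Of the lower entries, 90.5% were also lower on plate 5 with its 7 cells, where 60.9% of all tested entries were. Of the 89 higher entries 66 (74.2%) were higher there, as were 39.03% of all tested. The plate 5 ratios use the heterozygous means that the rule used, and plate 5 is part of the pooled ratio. Plate 5 is therefore no independent check of these entries.

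**Figure D2:**
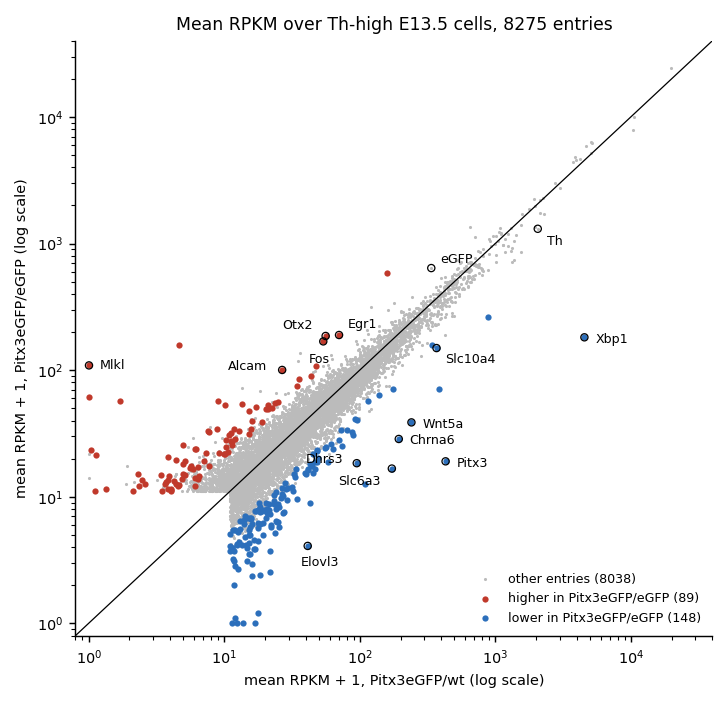
Mean RPKM + 1 over the 90 Pitx3eGFP/wt cells (x, log axis) against the 81 Pitx3eGFP/eGFP cells (y, log axis) for 8275 entries, with the 89 higher entries in red, the lower entries (1.79%) in blue and equality as the line. Xbp1, Pitx3, Slc6a3, Chrna6 and Wnt5a lie far below the line; Otx2, Alcam, Fos, Egr1 and Mlkl lie above it, and eGFP and Th did not pass the rule.

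At P1 the spike-in could be looked at within 1 genotype. Heterozygous *Th*-high cells were made there both with ERCC (67 cells) and without. Between these, 1.36% of 8537 entries were at least 2-fold higher with ERCC and 472 (5.53%) lower. Of the 89 entries higher in E13.5 homozygotes, 14 (15.7%) showed a 2-fold P1 spike-in difference in the same direction, where 0.979% of all tested entries did. Of the lower entries 23 (15.5%) did, against 4.19% of all tested. A 2-fold difference in the opposite direction was found for 7 of the higher and 5 of the lower entries, against 4.19% and 0.979% of all tested. Entries with a P1 spike-in difference included some of the most different genes. Genotype and spike-in cannot be told apart at E13.5 for any entry, with or without such a difference at P1. The P1 comparison of genotypes used below shares the 67 heterozygous cells with ERCC with this one, so the P1 values are only set side by side. The P1 cells with and without ERCC were separate libraries with no animal named. Anything else that differed between them is therefore part of each P1 spike-in difference.

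*Xbp1*, a transcription factor of the unfolded protein response, had the largest difference in mean level of the named genes, with 4546 ± 2703 in heterozygotes and 180.6 ± 211.8 in homozygotes. At P1 it was at 1072 in heterozygotes without ERCC, 114.5 in heterozygotes with ERCC and 137.6 in homozygotes, all of which had ERCC. *Mlkl*, an effector of necroptosis, showed the reverse: 2 reads in 207052888 over the 90 heterozygous cells (0.00966 CPM, reads scaled to library size, exact Poisson interval 0.00117 to 0.0349, counting error only) and a mean RPKM of 108.01 in homozygotes, where 80 of 81 cells lay over an RPKM of 10. At P1 *Mlkl* was at 0 without ERCC and 66.97 with ERCC in heterozygotes, and at 53.4 in homozygotes. At P1 both genes differed over 2-fold with the spike-in and under 2-fold with genotype. *Fanci*, a DNA repair gene, *Svep1*, *Mob3b*, *Rasgef1b* and the splicing factor gene *U2af1* also had a P1 spike-in difference of at least 2-fold in the E13.5 direction, with log2 ratios of 3.44, 1.77, -1.03, -1.64 and -1.05. Their E13.5 mean RPKM, heterozygotes against homozygotes, was 0.034 against 22.6, 7.98 against 56.4, 20.8 against 1.53, 12.6 against 3.17 and 19.7 against 6.96. On plate 5 *Rasgef1b* was at 23.2, above the heterozygotes.

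The dopamine genes ran from far below the heterozygote level to slightly above it (log2 ratios -3.37 to 0.17, 6 of 7 below 0). Of the 7 genes of dopamine synthesis, storage and uptake, 2 were lower by the rule, *Slc6a3* and *Slc10a4*, beside 1.79% of all entries, and none was higher. *Th* chose the cells, and the median log2 ratio of the other 6 genes was -0.92 where all tested entries had -0.05. *Slc6a3*, the dopamine transporter (chr13:73536747-73578672, plus strand), had a mean RPKM of 171.6 ± 335.3 in heterozygotes and 15.7 ± 112.1 in homozygotes, with plate means of 23.2, 20.6 and 4.17. The lowest, median and highest *Slc6a3* values were 0, 0.221 and 1688 in heterozygous cells and 0, 0 and 998 in homozygous cells. Its level was carried by a minority of cells in both genotypes, and 76 of the 81 homozygous cells had no read. It lay over an RPKM of 10 in 33 of 90 heterozygous cells (36.7%, 26.8 to 47.5) and 5 of 81 homozygous cells (6.17%, 2.03 to 13.8). The homozygous share minus the heterozygous share was -30.5 percentage points (-41.4 to -18.6). *Slc6a3* lay over 150 in 24 of 90 heterozygous cells (26.7%, 17.9 to 37.03) and 1 of 81 homozygous cells (1.23%, 0.0313 to 6.69). The single homozygous cell over 150, on plate 4, reached 998 and made most of the homozygous mean and, as the 1 cell with a value above 0 there, the whole mean of its plate. At P1, with ERCC in both genotypes, *Slc6a3* was at 876 in heterozygotes and 78.96 in homozygotes, and in heterozygotes without ERCC at 549.

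*Slc10a4*, a synaptic vesicle protein of monoamine neurons, was at 367.6 ± 396.8 in heterozygotes and 148.4 ± 227.1 in homozygotes (log2 ratio -1.30) and remained detectable in most cells, over an RPKM of 10 in 75 of 90 heterozygous cells (83.3%, 74.005 to 90.4) and 60 of 81 homozygous cells (74.1%, 63.1 to 83.2). *Slc18a2*, the vesicular monoamine transporter, was at 282.4 ± 249.9 in heterozygotes and 127.9 ± 151.1 in homozygotes (log2 ratio -1.14 pooled), but on plate 4 its ratio was -0.83 and it did not pass the rule. It differed 2-fold with the spike-in at P1 in the opposite direction, with a log2 ratio of 1.05 for cells with ERCC over cells without. *Th*, which chose the cells, had a log2 ratio of -0.65, *Ddc* -0.40 at mean levels of 1383 against 1049, and *Gch1*, which makes the cofactor of tyrosine hydroxylase, 0.17 at 169.4 against 191.1. The D2 receptor *Drd2* was low, at 11.8 against 6.84, as was the aldehyde dehydrogenase *Aldh1a1* of later nigral neurons, at 11.04 against 7.39 and over an RPKM of 10 in 8 heterozygous and 6 homozygous cells.

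The RefSeq promoter of *Slc6a3* (300 bases, chr13:73536497-73536796, plus strand, GRCm38.p6) is shown because this gene had the lowest ratio among the dopamine genes, and an *Otx2* promoter (chr14:48665060-48665359, minus strand) because *Otx2*, described below, had the highest ratio among the listed transcription factors. Both were searched on both strands for the bicoid-class homeodomain motif TAATCC, which on the other strand reads GGATTA, and capitals mark a match.
Slc6a3: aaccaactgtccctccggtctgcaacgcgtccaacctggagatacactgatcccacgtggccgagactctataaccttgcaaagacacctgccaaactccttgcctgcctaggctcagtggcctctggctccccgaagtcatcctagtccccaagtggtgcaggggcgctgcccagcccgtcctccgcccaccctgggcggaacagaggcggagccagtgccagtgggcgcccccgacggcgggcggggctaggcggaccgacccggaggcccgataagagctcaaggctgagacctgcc
Otx2: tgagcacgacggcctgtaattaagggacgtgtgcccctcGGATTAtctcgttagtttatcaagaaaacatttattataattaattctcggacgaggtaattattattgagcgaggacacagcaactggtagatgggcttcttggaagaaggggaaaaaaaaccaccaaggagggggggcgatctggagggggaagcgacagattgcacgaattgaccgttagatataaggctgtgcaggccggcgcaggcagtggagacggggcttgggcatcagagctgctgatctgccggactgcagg
The *Slc6a3* window held no match. The *Otx2* window, 1 of 4 listed for that gene, held 1, upstream of the transcription start, and is shown for that match. The other 3 held none. The motif occurred in 2320 of all 32851 promoters in the table (7.06%), and at least 1 listed promoter held it in 415 of 6142 tested genes (6.76%), 5 of 97 lower genes with a listed promoter (5.15%) and 6 of 62 higher genes (9.68%). A match or its absence in these windows describes the letters only.

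The nicotinic acetylcholine receptor subunits of dopamine neurons, *Chrna6* and *Chrnb3*, were both lower, while *Chrna4* (106.4 against 69.4) and *Chrnb2* (96.8 against 87.1) were within 2-fold. The 4 tested members had a median log2 ratio of -1.35 pooled, and -1.58, -2.09 and -1.12 on plates 4, 5 and 6. Of these, 2 passed the rule, beside 1.79% of all entries. *Chrna6* had a mean RPKM of 193.2 ± 305.4 in heterozygotes and 27.6 ± 81.9 in homozygotes, with plate means of 20.9, 0 and 43.2. The lowest, median and highest *Chrna6* values were 0, 9.76 and 1331 in heterozygous cells and 0, 0 and 432 in homozygous cells. It lay over an RPKM of 10 in 45 of 90 heterozygous cells (50%, 39.3 to 60.7) and 13 of 81 homozygous cells (16.05%, 8.83 to 25.9). *Chrnb3* was at 15.5 ± 72.7 in heterozygotes and 2.85 ± 10.97 in homozygotes, but few cells expressed it (9 heterozygous and 6 homozygous cells over an RPKM of 10), and among cells with *Th* of at most 2000 its ratio was reversed (log2 1.43). *Slc6a3* and *Chrna6* were over an RPKM of 10 in the same cell in 25 of 90 heterozygous cells (27.8%, 18.9 to 38.2) and in 1 of 81 homozygous cells (1.23%, 0.0313 to 6.69).

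*Slc6a3*, *Chrna6* and *Elovl3* were found in a smaller share of homozygous cells in each band of *Th*. The share with *Slc18a2* was smaller in the lowest and middle bands but not in the highest. In the band of *Th* from 150 to 1000, *Slc6a3* was over an RPKM of 10 in 7 of 26 heterozygous cells and 3 of 39 homozygous cells, from 1000 to 2000 in 9 of 25 heterozygous cells and 2 of 26 homozygous cells, and above 2000 in 17 of 39 heterozygous cells and 0 of 16 homozygous cells. The homozygous cells with the most *Th* were thus without *Slc6a3*, with 16 cells behind that value. *Chrna6* was over an RPKM of 10 in 11 of 26 heterozygous cells and 9 of 39 homozygous cells in the lowest band, in 10 of 25 heterozygous cells and 2 of 26 homozygous cells in the middle band, and in 24 of 39 heterozygous cells and 2 of 16 homozygous cells in the highest. *Elovl3* was over it in 2 of 39 homozygous cells in the lowest band, 0 of 26 homozygous cells in the middle and 1 of 16 homozygous cells in the highest, against 19 of 26 heterozygous cells, 21 of 25 heterozygous cells and 28 of 39 heterozygous cells. *Slc18a2* was over it in 24 of 26 heterozygous cells and 31 of 39 homozygous cells in the lowest band, 23 of 25 heterozygous cells and 20 of 26 homozygous cells in the middle, and 35 of 39 heterozygous cells and 15 of 16 homozygous cells in the highest. Most cells of both genotypes passed that level, and the mean *Slc18a2* RPKM was lower in homozygotes in each band. From the lowest band to the highest it was 199.2, 254.9 and 355.4 in heterozygotes and 109.99, 101.8 and 214.2 in homozygotes. *Wnt5a*, described next, had fewer positive homozygous cells in each band: 18 of 39 homozygous cells, 4 of 26 homozygous cells and 10 of 16 homozygous cells, against 20 of 26 heterozygous cells, 19 of 25 heterozygous cells and 30 of 39 heterozygous cells.

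Wnt pathway genes held 3 of the lower entries among 8 tested members and no higher entry (median log2 ratio -0.61), where 1.79% of all entries were lower. The list's median was -0.06, -2.46 and -1.58 on plates 4, 5 and 6, so plate 4, with the most cells, showed almost no shift of the list. *Wnt5a*, a ligand of noncanonical Wnt signalling made by the ventral midbrain, had a mean RPKM of 239.8 ± 251.02 in heterozygotes and 37.7 ± 69.9 in homozygotes, with plate means of 50.6, 28.6 and 21.7. The lowest, median and highest *Wnt5a* values were 0, 150.8 and 909.6 in heterozygous cells and 0, 0.72 and 413 in homozygous cells. The ranges overlapped, but the typical homozygous cell had almost no *Wnt5a* read. It lay over an RPKM of 10 in 69 of 90 heterozygous cells (76.7%, 66.6 to 84.9) and 32 of 81 homozygous cells (39.5%, 28.8 to 50.99). *Rspo3*, a secreted enhancer of Wnt signals, was at 15.2 against 1.39 and *Axin2*, a feedback inhibitor and common readout of canonical signalling, at 16.7 against 6.82. Both came from few cells, 13 and 22 of the 90 heterozygotes over an RPKM of 10, against 4 and 11 of the 81 homozygotes. The nuclear factor *Tcf7l2* was at 57.5 against 28.7 without passing the rule, and the receptor *Fzd3* (152.1 against 146.4) and beta-catenin *Ctnnb1* (174.2 against 183.6) were close.

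Among 5 tested genes of retinoic acid metabolism and signalling, 1 was lower by the rule, beside 1.79% of all entries. *Dhrs3*, which reduces retinaldehyde back to retinol, was at 94.1 ± 148.4 in heterozygotes and 17.4 ± 43.5 in homozygotes (plate means 13.2, 30.03 and 20.4) and over an RPKM of 10 in 39 of 90 heterozygous cells (43.3%, 32.9 to 54.2) and 15 of 81 homozygous cells (18.5%, 10.8 to 28.7). *Crabp2*, a cytoplasmic retinoic acid carrier, was at 28.3 against 11.6 without passing it. In E13.5 cells with *Th* of 150 or below the *Dhrs3* ratio had the other sign, with mean RPKM of 13.4 in heterozygotes and 27.1 in homozygotes, and the difference between the 2 ratios was not tested.

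Of 14 tested midbrain dopamine transcription factors, 2 were higher in homozygotes, *Otx2* and *Ebf1*, beside 1.08% of all entries, and none was lower, with a median log2 ratio of -0.02. *Otx2*, which patterns the midbrain and later marks neurons of the ventral tegmental area, had a mean RPKM of 55.1 ± 101.5 in heterozygotes and 185.2 ± 242.5 in homozygotes, with plate means of 162.7, 144.7 and 225.5. The lowest, median and highest *Otx2* values were 0, 0.269 and 472 in heterozygous cells and 0, 118.99 and 1199 in homozygous cells. It lay over an RPKM of 10 in 34 of 90 heterozygous cells (37.8%, 27.8 to 48.6) and 54 of 81 homozygous cells (66.7%, 55.3 to 76.8), which puts the homozygotes 28.9 percentage points (13.9 to 42.1) higher. *Otx2* without *Slc6a3* was found in 53 of 81 homozygous cells (65.4%, 54.04 to 75.7) against 26 of 90 heterozygous cells (28.9%, 19.8 to 39.4). By band of *Th*, *Otx2* was over an RPKM of 10 in 9 of 26 heterozygous cells and 26 of 39 homozygous cells from 150 to 1000, in 11 of 25 heterozygous cells and 15 of 26 homozygous cells from 1000 to 2000, and in 14 of 39 heterozygous cells and 13 of 16 homozygous cells above 2000. The gap was narrowest in the middle band. At P1, with ERCC in both genotypes, *Otx2* was at 45.5 in heterozygotes and 99.2 in homozygotes, and in heterozygotes without ERCC at 68.1.

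*Ebf1*, a helix-loop-helix factor of postmitotic neurons, was at 42.3 ± 69.3 in heterozygotes and 88.2 ± 118.4 in homozygotes (log2 ratio 1.04), and only just passed the rule on plate 6 (1.03). On plate 5 the ratio was 0.24, and it fell below 1 under some other settings, such as *Th* of at most 2000 (0.64). The P1 genotype ratio of *Ebf1* was -0.01. Its relatives *Ebf2* (57.6 against 84.9) and *Ebf3* (22.5 against 35.7) and the floor plate factor *Foxa1* (60.6 against 129.7) had higher means without passing it. *Nr4a2* (671 against 528), *Lmx1a* (152.02 against 199.8), *Lmx1b* (33.3 against 38.4), *Foxa2* (136.4 against 98.9) and *En1* (70.6 against 51.97) stayed within 2-fold.

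*Alcam*, an immunoglobulin adhesion molecule of growing axons, had a higher level in most homozygous cells. Its mean RPKM was 25.8 ± 50.3 in heterozygotes and 99.3 ± 83.9 in homozygotes, with plate means of 100.5, 80.3 and 102.1, and the ranges of the genotypes overlapped. The lowest, median and highest *Alcam* values were 0, 2.499 and 298.4 in heterozygous cells and 0, 87.05 and 365.1 in homozygous cells. It lay over an RPKM of 10 in 36 of 90 heterozygous cells (40%, 29.8 to 50.9) and 68 of 81 homozygous cells (83.95%, 74.1 to 91.2). The homozygotes were 43.95 percentage points (29.9 to 55.4) higher. The same held after thinning to 100000 reads per cell, with 38.9% of heterozygous and 82.7% of homozygous cells. The P1 log2 ratios were 0.73 for the spike-in and 0.19 for genotype with ERCC in both, and with each cell scaled by its median ratio the E13.5 value was 0.43 in place of 1.91.

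Immediate early genes, which cells induce within minutes of stimulation, had higher means in homozygotes, most of them by less than 2-fold. All 8 tested members had a positive log2 ratio (median 0.77 pooled, and 0.86, 0.52 and 0.94 on plates 4, 5 and 6), and 3, *Fos*, *Egr1* and *Jun*, passed the rule, a share to be read beside the 1.08% of all entries. *Fos* was at 52.8 ± 129.5 in heterozygotes and 167.7 ± 246.2 in homozygotes, with plate means of 148.8, 170.9 and 193.1, and *Egr1* at 69.4 ± 181.6 in heterozygotes and 188.5 ± 222.8 in homozygotes, with 141.4, 251.4 and 239.4. Both were over an RPKM of 10 in 15 of 90 heterozygous cells (16.7%, 9.64 to 25.995) and 46 of 81 homozygous cells (56.8%, 45.3 to 67.8). *Egr1* only just passed on plate 4 (log2 ratio 1.02), and with each cell scaled by its median ratio its pooled value was 0.84. *Jun* was at 20.03 against 51.97, *Junb* at 16.3 against 31.4 and *Dusp1* at 98.8 against 118.8. At P1, heterozygotes with ERCC had less *Fos* and *Egr1* than heterozygotes without (7.12 against 51.9, and 7.12 against 49.6), the opposite of the E13.5 direction, and homozygotes were at 12.3 and 14.8. The mitochondrially encoded genes also lay on 1 side, 7 of 7 tested with positive log2 ratios and a median of 0.33, none of them past the rule. On plate 5 the median was -0.29, and the median share of a cell's reads on mitochondrial genes was 2.70% in heterozygotes and 2.41% in homozygotes. The summed RPKM of the list had medians of 16742 and 18103, and 1 homozygous cell reached 257978.

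**Figure D3:**
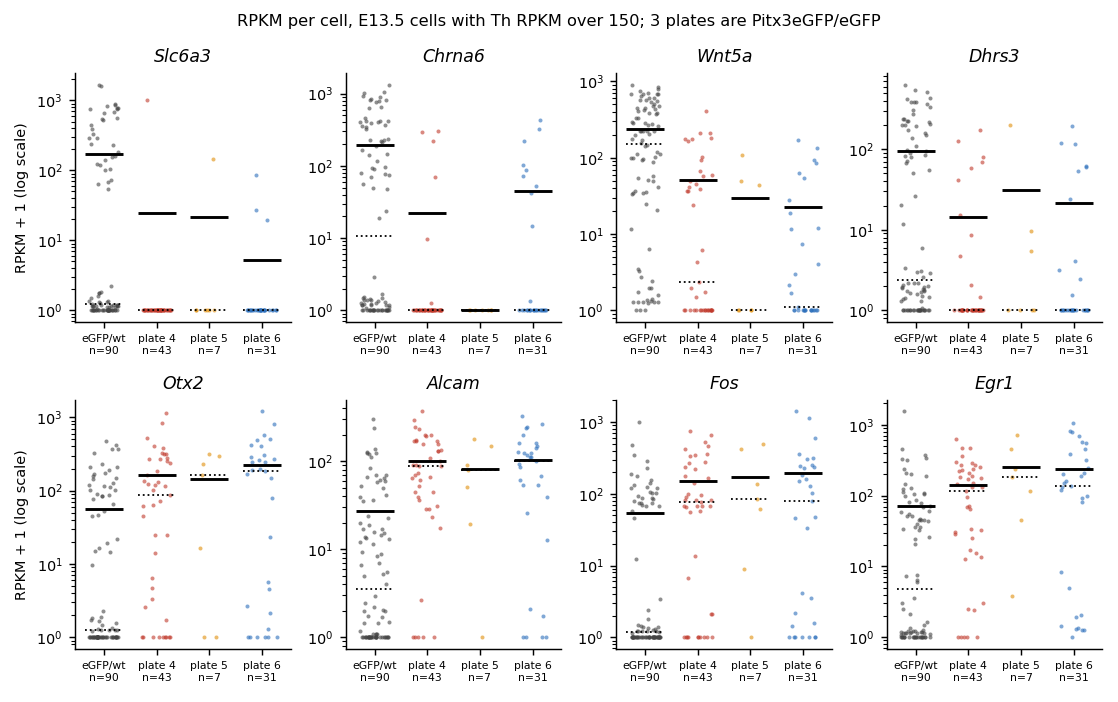
RPKM + 1 per cell on a log axis for 8 genes in Pitx3eGFP/wt cells and on the 3 Pitx3eGFP/eGFP plates at E13.5; each point is a cell, the solid line the mean and the dotted line the median. Cells over an RPKM of 10 are fewer in homozygotes for Slc6a3, Chrna6, Wnt5a and Dhrs3 and more frequent for Otx2, Alcam, Fos and Egr1, and each gene has both expressing and non-expressing cells in each genotype.

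Most other lists had no member past the rule. None of the 13 tested members of the immature neuron list passed (median log2 ratio 0.12), with *Stmn2* at 1571 against 1711, *Dcx* at 88.9 against 98.5 and *Tubb2b* at 645 against 1362. None of the 13 tested members of later neuronal maturation passed (median -0.01), where *Syt1* was at 114.8 against 65.9. The 19 tested members for axon guidance had a median of -0.20, with *Dcc* at 37.3 against 22.1, *Epha5* at 82.8 against 47.96 and *Chl1* at 44.6 against 66.8. No potassium, sodium or calcium channel passed, although *Kcnip4* (36.8 against 16.2), *Kcnn3* (22.6 against 11.8) and *Cacna1g* (14.6 against 6.73) had lower means. The neurotrophic factor receptors *Ret* (74.7 against 54.7) and *Gfra1* (364.3 against 362.8) were within 2-fold, as were the p53 and apoptosis genes *Bax* (156.5 against 103.5) and *Cdkn1a* (14.6 against 21.5). Of 10 tested p53 and apoptosis genes none passed, with a median of 0.34. Of 4 tested tegmental subtype genes *Otx2*, given above, was higher, beside 1.08% of all entries, and *Cck* (663 against 691), *Slc17a6* (42.8 against 60.2) and *Nxph4* (98.5 against 50.02) did not pass. *Gad2* (7.29 against 7.91) and *Bdnf* (7.47 against 2.08) were below the level needed for testing. Of 7 tested genes described elsewhere as depending on *Pitx3*, *Slc6a3* passed, beside 1.79% of all entries. The list holds *Th*, which chose the cells, and the median of its other 6 genes was -0.61. The 11 tested familial parkinsonism genes (median 0.02), 5 tetrahydrobiopterin and monoamine breakdown genes (median -0.37) and 4 proneural and Notch genes (median 0.03) held none past the rule. *Xbp1*, which differed with the spike-in at P1, was the only 1 of 9 heat shock and unfolded protein genes to pass, beside 1.79% of all entries. A single cell cycle gene and no interferon response gene reached the level needed for testing, and *Mki67*, *Cdk1* and *Birc5* had no read. Female and male transcripts were present in both genotypes, *Xist* at 22.8 against 19.5 and *Ddx3y* at 4.64 against 8.93. The plates were not alike in *Xist*, with means of 29.2, 20.3 and 5.90 on plates 4, 5 and 6.

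**Figure D4:**
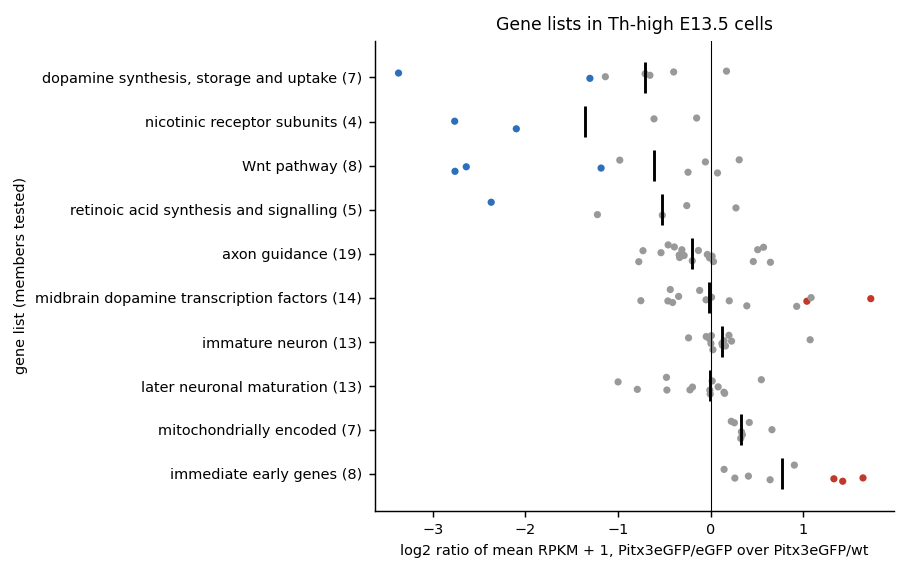
Log2 ratio of mean RPKM + 1, Pitx3eGFP/eGFP over Pitx3eGFP/wt, for the tested members of 10 gene lists at E13.5; points are genes, red higher and blue lower by the rule, and the bar is the list's median. Nicotinic subunits and dopamine genes lie lowest (medians of -1.35 and, with *Th* that chose the cells, -0.71) and immediate early genes highest (0.77).

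Several named genes had ratios that rested on few cells. *Chil1*, *Crhbp* and *Car3*, with means of 16.7 against 0.205, 11.4 against 0.00712 and 10.96 against 0.0995, were over an RPKM of 10 in 7, 4 and 4 heterozygous cells and 1, 0 and 0 homozygous cells. Among the higher genes, *Sgpp2*, *Ier3*, *Fhl2*, *Nek3*, *Rrp8*, *Rcn1*, *Stx4a* and *Pcdhb9* had heterozygous means of 0.354 to 5.19 and were over an RPKM of 10 in 8 to 23 of the homozygous cells. On plate 5 *Nek3*, *Rcn1* and *Pcdhb9* were not higher, with log2 ratios of -0.08, -0.36 and -1.77. *Hist1h2al*, a histone entry annotated as a processed pseudogene, had 3 reads over all heterozygous cells and a mean RPKM of 20.5 in homozygotes, and it belongs to a multigene family whose copies share sequence. The snoRNA *Snord32a* (108.4 against 11.6) and the miRNA *Mir6418* (13.6 against 4.46) are short, so 1 read there is a large RPKM. Their shares over 10 were 66.7% against 9.88% and 60% against 17.3%, and after thinning 2.22% against 2.47% and 8.89% against 7.41%. The miRNA host transcript *Mir124a-1hg* was at 19.7 against 6.59, and *Csnk2a1*, a casein kinase subunit named for its share of cells, at 26.9 against 49.3 without passing the rule.

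Of the entries past the rule, 20 higher and 27 lower had a mean RPKM of at least 50 in either genotype, and the following were picked from these after their values were seen. Lower genes included the alpha-catenin *Ctnna1* (73.2 against 24.3), the glutamate receptor subunit *Gria3* (79.1 against 32.9), the protease inhibitor *Serpine2* (86.1 against 31.5), *Tmem255a* (87.96 against 30.01) and the actin regulator *Coro1a* (138.4 against 62.7). Their P1 log2 ratios for genotype were -1.93, -0.41, -0.51, -2.04 and 0.30, and for the spike-in 0.26, -0.03, -0.29, 0.52 and 0.07. Higher genes included the heparan sulfate 6-O-endosulfatase *Sulf1* (33.2 against 73.96), *Asb4* (46.9 against 106.8) and *Raly* (34.6 against 84.5), with P1 genotype ratios of 1.12, 0.16 and 0.55 and P1 spike-in ratios of 0.37, -0.31 and 0.85. *Sulf1* was not higher on plate 5 (-0.28). None of the genes picked here had a P1 spike-in ratio of at least 1 in size. They therefore do not stand for all entries at this level. *Slc34a2* and *Ep400*, lower at E13.5 and not picked, had P1 spike-in ratios of -1.48 and -1.56. *Rps27rt*, higher and not picked, had 1.48, and *Hddc3* also differed over 2-fold in its E13.5 direction. *Fos* and *Egr1*, given above, were at this level too and differed in the opposite direction. So did the long noncoding *Gm26825* (-2.33) and an entry without a symbol (-2.73), both higher at E13.5 and not picked. Their P1 genotype ratios were 2.63 and 3.31, and that of *AA465934*, also higher and not picked, was 2.57. In E13.5 cells with *Th* of 150 or below, *Ctnna1* (0.73), *Tmem255a* (0.99) and *Sulf1* (-1.44) had ratios of the other sign, and *Gria3* (-0.59), *Serpine2* (-1.09), *Coro1a* (-0.14), *Asb4* (0.36) and *Raly* (1.51) of the same sign.

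The differences were set beside those of 2 other comparisons. Among E13.5 cells with *Th* of 150 or below (50 of them heterozygous), 1.22% of 8256 entries were higher and 1.36% lower by the same rule. Of the 89 higher entries of the *Th*-high cells, 33 (37.1%) were at least 2-fold higher there with the plates pooled, where 3.85% of all tested entries were, and 25 had the opposite sign (28.1%, where 52.4% of all tested entries were lower there). Of the lower entries 49 (33.1%) were at least 2-fold lower there with the plates pooled, where 3.12% of all tested entries were, and 35 had the opposite sign (23.6%, where 47.6% of all tested entries were higher there). These comparisons share plates and spike-in, so shared entries include those that followed the spike-in. Among *Th*-high P1 cells with ERCC in both genotypes (67 heterozygous and 90 homozygous), 1.28% of 8391 entries were higher and 83 (0.989%) lower on both homozygote plates. There, 11 of the lower and 5 of the 89 higher E13.5 entries passed the rule in the same direction. By sign alone 65 of the lower entries (43.9%) were lower at P1, where 43.1% of all tested entries were, and 50 of the 89 higher entries (56.2%) were higher, where 56.9% were. Named genes past the rule at E13.5 that had a P1 mean RPKM of at least 10 in either genotype and a P1 log2 ratio of at most -1 were *Pitx3* (-3.83), *Slc6a3* (-3.46), *Elovl3* (-2.33), *Wnt5a* (-2.18), *Chrna6* (-1.98) and *Slc10a4* (-1.06). *Otx2* (1.11) was higher by this pooled measure at both ages. On the homozygote plates at P1 *Otx2* was at 1.39 and 0.70 and *Slc10a4* at -1.26 and -0.86, so neither passed the rule there. *Crhbp*, lower at E13.5, was higher in P1 homozygotes, at 10.5 against 58.01 (log2 ratio 2.36). *Aldh1a1* and *Slc18a2*, at -3.29 and -2.49 at P1, had not passed the rule at E13.5.

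**Figure D5:**
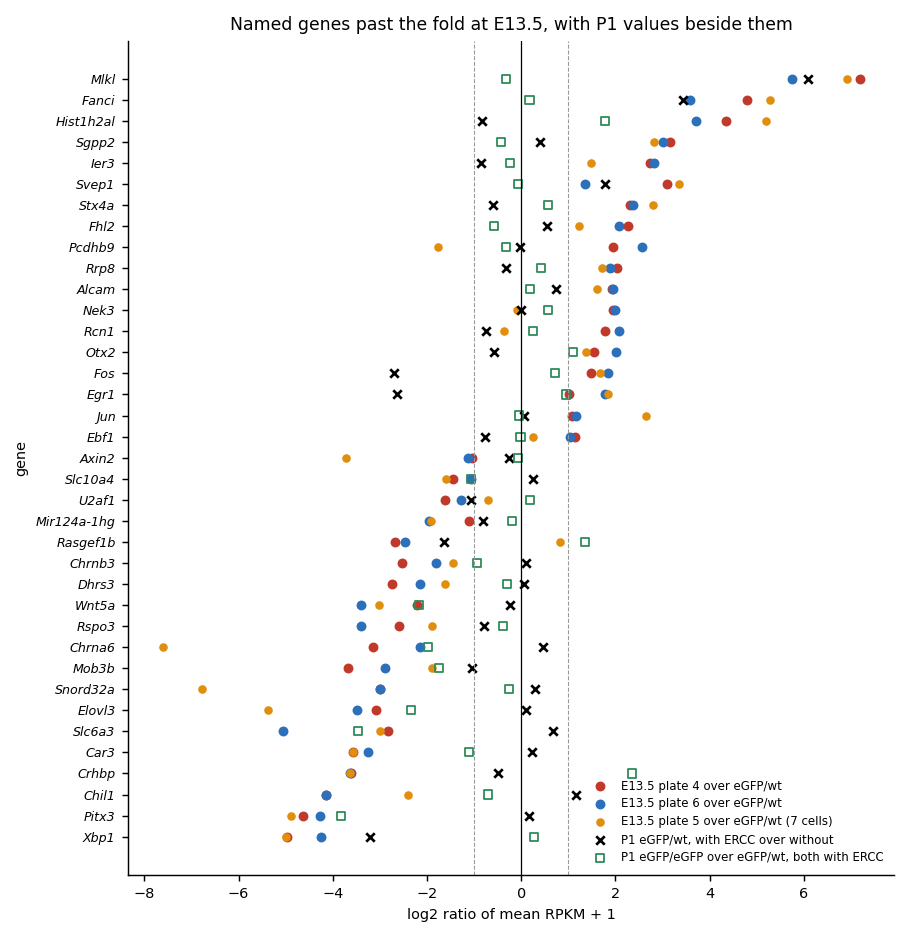
Log2 ratio of mean RPKM + 1 for the named genes past the rule, one row a gene: filled points are Pitx3eGFP/eGFP plates 4, 5 and 6 over Pitx3eGFP/wt at E13.5, crosses P1 Pitx3eGFP/wt with ERCC over without, and open squares P1 genotype with ERCC in both. Mlkl, Fanci, Svep1 and Xbp1 have crosses beside their E13.5 points (6.09, 3.44, 1.77 and -3.22), and Pitx3, Slc6a3, Elovl3, Chrna6 and Wnt5a have squares there.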

How the data were processed

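Smart-seq2 libraries of single eGFP-sorted cells were analysed from 1 file per cell. Per the methods, the authors aligned reads to mm10 merged with eGFP and ERCC sequences with STAR, kept uniquely mapped reads and calculated RPKM on Ensembl models. The deposited files list a raw read count and an RPKM for each entry. The deposited counts gave depth, thinning and summed reads, and the deposited RPKM gave every level. ERCC entries were not used here. E13.5 and P1 cells were read (844), with 39468 entries, of which 38130 matched a symbol. Members were the 171 cells (90 of 140 heterozygous, 81 of 186 homozygous) with over 100000 reads and *Th* RPKM over 150. They were compared beside 105 homozygous cells with *Th* of 150 or below and 116 P1 heterozygotes without ERCC. By the rule 89 entries were higher and 148 lower. The members and gene lists were chosen with earlier results of these data known. Each genotype was 1 sample, so levels are means over cells with SD over cells, log2 ratios use a pseudocount of 1, which understates the change of low genes, and entries needed a mean RPKM of at least 10. Shares carry exact Clopper-Pearson 95% intervals, differences of shares Newcombe intervals and summed reads exact Poisson intervals. These cover counting error only. They take cells or reads as independent and leave out spread between embryos, and reads have no molecular identifiers. Named genes were 12 higher and 12 lower ranked by the smaller of their plate 4 and plate 6 ratios, the 6 in each direction with the largest difference in share over an RPKM of 10, list genes past the rule, and 21 fixed genes; symbols of predicted genes and pseudogenes were left out, which kept *Hist1h2al*. Coordinates are from GENCODE vM21 (GRCm38), promoters from RefSeq (GRCm38.p6). Calculations used Python 3.11.15, numpy 2.4.6 and scipy 1.17.1 and were tested on simulated data. No doublet caller was run on these sorted single cells.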

Additional observations from a re-analysis of the deposited data

Results flagged for a closer look

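3 named genes differed one way on all 3 homozygote plates in the *Th*-high cells and the opposite way on all 3 in the E13.5 cells with *Th* of 150 or below. *Stx4a*, a plasma membrane syntaxin, had a log2 ratio of 2.38 in the *Th*-high cells and -0.95 in the others. *Rrp8*, a nucleolar methyltransferase, had 1.96 and -0.40, and *Axin2* -1.18 and 0.50. These differences between the cell groups were not tested. *Stx4a* and *Rrp8* were over an RPKM of 10 in 1 and 6 of the 90 heterozygous *Th*-high cells.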

How the results depend on the processing

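The 89 higher and the lower entries, 1.08% and 1.79% of those tested, became 0.254% and 0.435% with a pseudocount of 10, 2.2% and 5.23% with a mean RPKM of at least 1, 0.672% and 0.907% with at least 50, 2.03% and 0.955% with the mean of log2(RPKM + 1), 1.58% and 13.5% with median-of-ratios scaling (1 cell with a median ratio of 0 left out) and 0.667% and 1.02% with *Th* over 50. In alternatives chosen after seeing the data they were 1.86% and 2.73% with *Th* of at most 2000, 1.77% and 3.2% with 500000 to 2500000 reads, and 0.906% and 1.51% without entries that differed with the spike-in at P1. Leaving out 1 homozygote plate gave 1.12% to 3.75% higher and 1.96% to 4.65% lower entries; without plate 4 they were 3.75% and 4.65% and without plate 6 3.2% and 4.52%, where a single plate sets the rule. The *Pitx3* log2 ratio was -3.97 with a pseudocount of 10 and the eGFP ratio 0.58 with mean logs, with -4.67 to -4.36 and 0.87 to 0.95 when a plate was left out. List genes past the rule went from 5 higher and 10 lower to 9 higher (4 of them shared) and 8 lower (6 shared) with mean logs, and to 3 higher (2 shared) and 12 lower (8 shared) with 500000 to 2500000 reads. Of 540 values for 36 named genes under 15 alternatives, 539 kept their sign and 507 stayed past 2-fold. These genes had already passed the rule in the same cells, which most alternatives reuse, so most of this was fixed in advance. *Chrnb3* reversed to 1.43 with *Th* of at most 2000. No paired analysis was possible because no result comes from a test and heterozygous cells carry no plate label. Without named animals, spread between embryos is unknown.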
